A study of Homo sapiens with 12 samples.

Results

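The genes described are 10 members of the hypoxia response: BNIP3, BNIP3L, VEGFA, ADM, NDRG1, CA9, PDK1, EGLN3, P4HA1 and ANKRD37. They were taken by symbol from the 60649 genes of 12 RNA-sequencing count tables, and all 10 passed the expression filter. The libraries come from SBC3, an established human small cell lung cancer line grown as spheroids, with 3 libraries in each of 4 groups: control, teriflunomide, lurbinectedin, and teriflunomide with lurbinectedin (the combination). Teriflunomide blocks DHODH, a mitochondrial enzyme that makes pyrimidines. Lurbinectedin is a DNA-binding drug that stalls transcription. The labels give no dose, exposure time, spheroid size or oxygen level, and they do not say whether libraries of a group came from separate cultures, so p-values measure only the spread between these libraries. The set was chosen by a measured value: BNIP3 was lower with each drug alone, as a log2 fold change against control in these same libraries. Its values are therefore given as a description without a test. The 9 other members are genes of the same response.

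In oxygenated cells the prolyl hydroxylases EGLN1, EGLN2 and EGLN3 hydroxylate the alpha subunits of hypoxia-inducible factor (HIF), the VHL ubiquitin ligase then binds them, and they are degraded. When oxygen is short, HIF1A or EPAS1 pairs with ARNT and switches on genes for glucose use, acid export, blood vessel growth and mitochondrial turnover. Spheroids of cancer cells often have an oxygen-poor core, and these genes are used to mark it. Most of them also answer to other signals.

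Total counts were 23206414 to 33222162 per library. The share of counts from the mitochondrial genome was 6.26% to 24.9%, highest in teriflunomide replicate 3 (22.6%) and combination replicate 2 (24.9%). Calls of the 9 other members that change without either library are named below. YAP1, a marker of the non-neuroendocrine type of this cancer, stood at 246 CPM (read counts scaled by TMM to a common library size, the usual CPM unit) in control. The neuroendocrine markers INSM1, CHGA and NCAM1 stayed at or below 0.654 CPM in every library, whereas SYP was at 16.8 CPM and NEUROD1 at 4.03 CPM in control. The summed level of the 3 non-neuroendocrine markers was 279 to 302 CPM in control, 330 to 405 CPM with teriflunomide, 94.7 to 109 CPM with lurbinectedin and 111 to 176 CPM in the combination. YAP1 made up most of this sum, averaging 305, 64.9 and 97.2 CPM in the 3 treated groups in that order. REST averaged 43.9 CPM in control and 54.3, 35.4 and 44.0 CPM in the treated groups. POU2F3 stayed at or below 0.341 CPM. SYP averaged 15.1 CPM with teriflunomide, 30.9 CPM with lurbinectedin and 34.1 CPM in the combination. NEUROD1 averaged 4.87, 1.62 and 2.51 CPM in the same order, so these markers did not move together. The part of these markers in the results below was not tested. All 9 markers of fibroblasts, leukocytes and endothelium were at or below 0.545 CPM, with LUM and CD3E at 0 counts in all libraries. A count of 0 allows up to 3 counts, at most 0.145 CPM in these libraries.

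HIF recognises a short core that reads ACGTG or GCGTG. The DNA upstream of RefSeq transcript starts is shown because 6 members held this core there while their values went in different directions. RefSeq start windows (GRCh38.p14) were found for 7 of the 10 members, with PDK1 at 2 starts, and not for VEGFA, BNIP3L and NDRG1. The 250 bases before each start were searched on both strands for ACGTG and GCGTG, so that CACGTG counts on each strand. At least 1 match was found for 6 of the 7, with PDK1 counted by 1 of its 2 starts. The shares that follow are per window, and the 7 members have 8 windows. Among all 35116 such windows 18.5% held ACGTG, 32.2% held GCGTG and 43.2% held either. The BNIP3 window held 6 matches, of which 2 are the strands of CACGTG and 4 are GCGTG, and the ANKRD37 window held 3. The downstream start of PDK1 had 2, and CA9, P4HA1 and ADM had 1 each. No match was found upstream of the EGLN3 start or of the other PDK1 start. The stretches below read along the gene's strand, with the matched letters of either strand in capitals. They lie at chr10:131982015-131982074 (BNIP3, minus strand), chr2:172556060-172556089 (PDK1, plus), chr10:73096936-73096965 (P4HA1, minus), chr9:35673897-35673926 (CA9, plus), chr4:185396661-185396720 (ANKRD37, plus) and chr11:10304944-10305003 (ADM, plus). The stretches of PDK1, P4HA1 and ANKRD37 and part of that of CA9 lie inside the annotated gene spans given below. A match is a description of the letters and not a binding site.
BNIP3: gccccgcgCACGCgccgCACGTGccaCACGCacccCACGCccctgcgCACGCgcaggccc
PDK1: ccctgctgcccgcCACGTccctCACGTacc
P4HA1: gtgtgatcgagctCACGTagcgagggctgc
CA9: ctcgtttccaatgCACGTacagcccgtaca
ANKRD37: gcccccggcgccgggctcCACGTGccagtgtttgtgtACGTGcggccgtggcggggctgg
ADM: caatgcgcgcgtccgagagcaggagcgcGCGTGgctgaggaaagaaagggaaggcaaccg

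In control spheroids the members differed widely in level. On the scale of CPM per kb of annotated exon, BNIP3L was highest at 45.7 ± 1.93 (SD, n = 3), followed by BNIP3 at 32.6 ± 0.621 and P4HA1 at 28.8 ± 1.39. CA9 was at 8.36 ± 1.43 CPM per kb, PDK1 at 4.64 ± 0.278, EGLN3 at 2.24 ± 0.0917 and VEGFA at 1.56 ± 0.0948. ADM at 0.881 ± 0.113 and ANKRD37 at 0.805 ± 0.202 overlapped, and NDRG1 was lowest at 0.185 ± 0.0150. With lurbinectedin ADM (4.58 ± 0.598 CPM per kb) and ANKRD37 (3.51 ± 0.336) came to lie above VEGFA, EGLN3 and PDK1. EGLN3 at 1.39 ± 0.0778 and PDK1 at 1.29 ± 0.157 then overlapped each other. The lengths are unions of all annotated exons, so genes with many alternative exons read low on this scale.

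**Figure D1:**
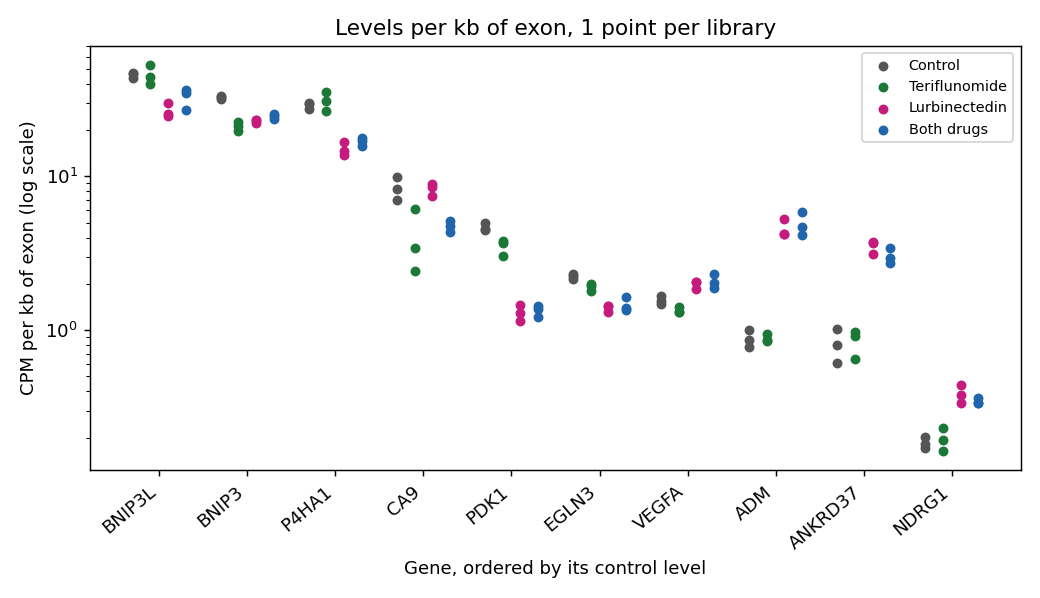
Level of each gene in CPM per kb of exon (vertical, log scale), 1 point per library, with genes ordered from left to right by their control mean. BNIP3L, BNIP3 and P4HA1 are the highest in control, and ADM and ANKRD37 rank higher in the 6 libraries with lurbinectedin.

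BNIP3 (ENSG00000176171.11, chromosome 10, 131966455 to 131982013, minus strand, GRCh38) encodes a receptor on the outer mitochondrial membrane that brings mitochondria to the autophagosome. It was at 175, 176 and 170 CPM in the control libraries and at 104, 113 and 120 CPM with teriflunomide. With lurbinectedin it was at 124, 124 and 118 CPM, and with the combination at 132, 136 and 125 CPM. Every treated library lay below every control library, and the combination mean was the nearest to control. The log2 difference from control was -0.63 (SE 0.0859) with teriflunomide, -0.51 (SE 0.0859) with lurbinectedin and -0.41 (SE 0.0857) with the combination. In bulk RNA a loss of cells that make a transcript and less of it per cell cannot be told apart.

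BNIP3L (ENSG00000104765.16, chromosome 8, 26383054 to 26505636, plus strand), also called NIX, is the paralogue of BNIP3 with the same role in mitochondrial clearance. It was at 195, 193 and 180 CPM in control and at 165, 183 and 219 CPM with teriflunomide, so these groups overlapped (log2 difference -0.00, SE 0.131, edgeR adjusted p = 0.993). With lurbinectedin it fell to 106, 125 and 103 CPM, or by 0.77 on the log2 scale (SE 0.133, edgeR adjusted p = 0.000134). The combination libraries stood at 151, 144 and 113 CPM (-0.48, SE 0.132, edgeR adjusted p = 0.00533). The ratio of BNIP3 to BNIP3L, each per kb of exon, was 0.701 to 0.735 in control, 0.427 to 0.493 with teriflunomide, 0.773 to 0.914 in lurbinectedin libraries and 0.683 to 0.866 where both drugs were given. The ratio was lowest in the teriflunomide libraries, where BNIP3L overlapped its control values and BNIP3 did not. BNIP3 was chosen for its fall there, so the low ratio follows from that choice and supports nothing.

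PDK1 (ENSG00000152256.14, chromosome 2, 172555373 to 172608669, plus strand) encodes pyruvate dehydrogenase kinase 1, which keeps pyruvate out of the citric acid cycle. It was at 73.6, 67.0 and 66.0 CPM in control and at 16.9, 21.6 and 19.1 CPM with lurbinectedin. This was the largest fall among the members, 3.58-fold (log2 fold change -1.84, SE 0.130, edgeR adjusted p = 2.02e-08). The combination libraries, at 20.4, 21.2 and 18.0 CPM, lay in the same range as those with lurbinectedin alone. With teriflunomide PDK1 was at 45.0, 54.5 and 56.6 CPM, below every control library. That difference (-0.41, SE 0.125) missed the threshold with an edgeR adjusted p of 0.0695, but passed it without teriflunomide replicate 3 (adjusted p = 0.0171) and in DESeq2 (adjusted p = 0.0135).

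CA9 (ENSG00000107159.13, chromosome 9, 35673918 to 35681159, plus strand) encodes carbonic anhydrase IX, a membrane enzyme that handles acid outside the cell and is a common stain for hypoxic tumour regions. It was the 1 member of the 9 called with teriflunomide and the 1 not called with lurbinectedin. Control libraries were at 15.9, 11.3 and 13.2 CPM and lurbinectedin libraries at 14.2, 13.7 and 11.9 CPM (log2 fold change -0.02, SE 0.246, edgeR adjusted p = 0.951). Teriflunomide libraries were at 5.48, 9.79 and 3.92 CPM, all below control, a fall of 2.10-fold (-1.07, SE 0.251, edgeR adjusted p = 0.0264). Combination libraries were at 8.25, 7.63 and 6.96 CPM, which was lower than control (-0.82, SE 0.251, edgeR adjusted p = 0.00984).

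The teriflunomide call of CA9 is near the threshold. The adjusted p was 0.124, 0.0567 and 0.0975 without control replicates 1, 2 and 3 and 0.0554 without teriflunomide replicate 1. The call was also lost when scaled by library size alone (adjusted p = 0.0918) and with only the compared groups in the fit (adjusted p = 0.124). It was 0.0156 without teriflunomide replicate 3, the library with the high mitochondrial share. CA9 shares 581 of its 1608 exonic bases with ARHGEF39 on the other strand, and the use of strand in counting is not stated. ARHGEF39 was at 22.9 ± 0.505 CPM in control and 20.3 ± 1.11 CPM with teriflunomide (log2 difference -0.17, SE 0.111, edgeR adjusted p = 0.347).

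**Figure D2:**
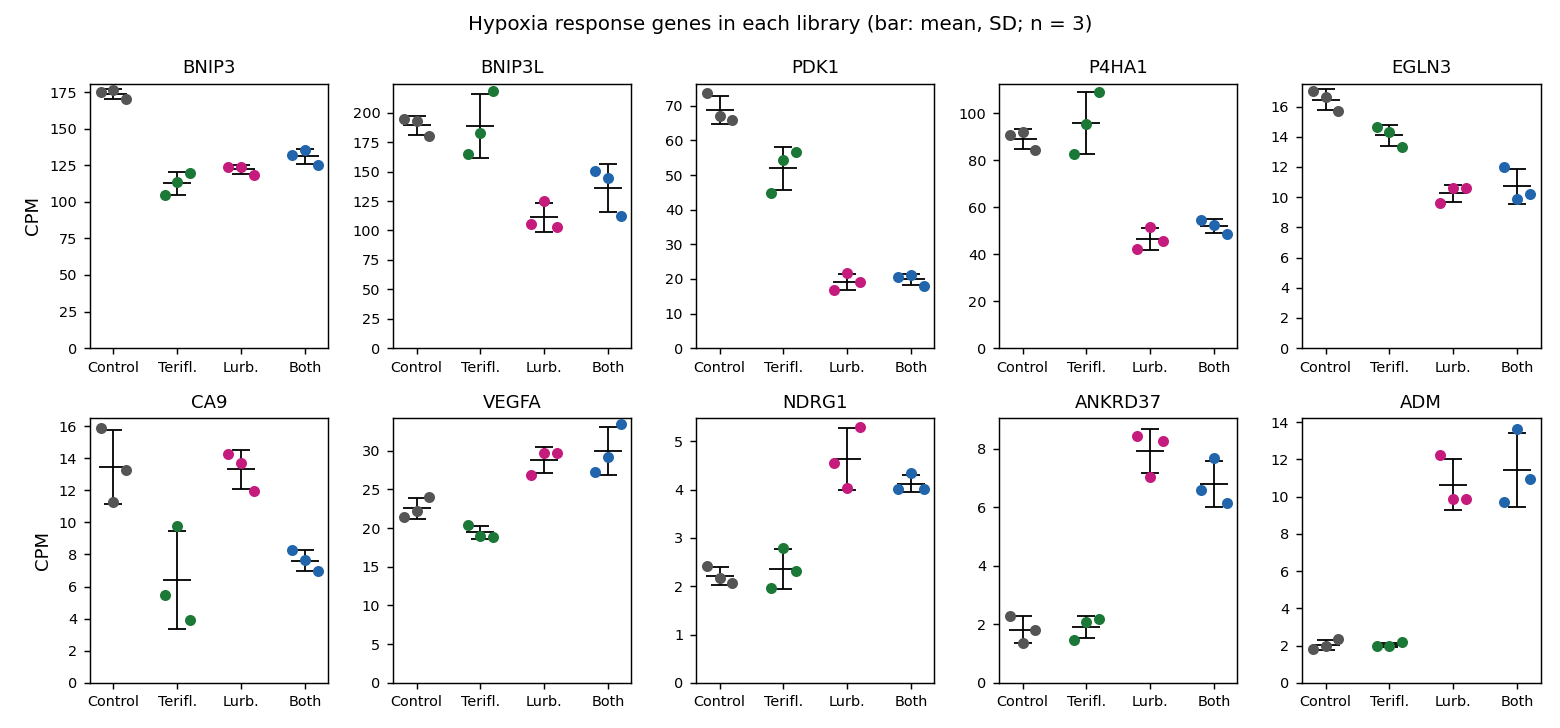
CPM of each gene by group, 1 point per library, with the mean and SD of 3 libraries as black bars and vertical axes that start at 0. BNIP3 is below control in all 9 treated libraries, CA9 is low in the 6 libraries with teriflunomide, and ADM and ANKRD37 are high in the 6 libraries with lurbinectedin.

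The secreted factors went up with lurbinectedin. ADM (ENSG00000148926.10, chromosome 11, 10305073 to 10307397, plus strand) encodes adrenomedullin, a peptide that widens vessels. It was at 1.81, 2.01 and 2.33 CPM in control, from 54 to 78 counts per library, and at 1.99, 1.98 and 2.18 CPM with teriflunomide. With lurbinectedin it rose to 12.3, 9.85 and 9.85 CPM, 5.17-fold (log2 fold change 2.37, SE 0.173, edgeR adjusted p = 2.77e-08). The combination gave 9.70, 13.6 and 10.9 CPM (2.47, SE 0.173, edgeR adjusted p = 2.32e-08). The lowest of the 6 libraries with lurbinectedin, at 9.70 CPM, lay above the highest of the 6 without it, at 2.33 CPM.

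VEGFA (ENSG00000112715.25, chromosome 6, 43770184 to 43786487, plus strand), the main growth factor of blood vessels, moved far less. It was at 21.4, 22.2 and 24.1 CPM in control and at 26.9, 29.8 and 29.8 CPM with lurbinectedin (log2 fold change 0.35, SE 0.113, edgeR adjusted p = 0.0119). The combination libraries were at 27.3, 29.2 and 33.4 CPM (0.41, SE 0.112, edgeR adjusted p = 0.00508). Teriflunomide libraries, at 20.5, 19.0 and 18.9 CPM, lay below control without passing the test (-0.21, SE 0.113, edgeR adjusted p = 0.256). The rise with lurbinectedin was not called without control replicate 1 (adjusted p = 0.0604), without lurbinectedin replicate 2 (adjusted p = 0.0507), with no expression filter (adjusted p = 0.184) or when scaled by library size alone (0.12, adjusted p = 0.542). The combination was not called against control with no filter (adjusted p = 0.0751) or with library size only (adjusted p = 0.211).

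EGLN3 (ENSG00000129521.15, chromosome 14, 33924227 to 34462774, minus strand) encodes the oxygen-sensing prolyl hydroxylase that HIF itself induces. It was at 17.0, 16.6 and 15.7 CPM in control, at 14.6, 14.3 and 13.3 CPM with teriflunomide and at 9.59, 10.6 and 10.6 CPM with lurbinectedin. The fall with lurbinectedin was 1.60-fold (log2 fold change -0.68, SE 0.118, edgeR adjusted p = 0.000140). The combination libraries, at 10.7 ± 1.14 CPM (SD, n = 3), overlapped those with lurbinectedin alone and were lower than control (-0.62, SE 0.118, edgeR adjusted p = 0.000338). The teriflunomide libraries did not overlap with control, but their difference was not called (-0.22, SE 0.116, edgeR adjusted p = 0.247).

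P4HA1 (ENSG00000122884.13, chromosome 10, 73007217 to 73096974, minus strand) encodes a catalytic subunit of the prolyl hydroxylase that matures collagen. Its control libraries, at 91.0, 92.2 and 84.2 CPM, lay within the range of the teriflunomide libraries, at 82.7, 95.7 and 109 CPM. With lurbinectedin it fell to 42.3, 51.6 and 45.5 CPM, 1.92-fold (log2 fold change -0.94, SE 0.119, edgeR adjusted p = 7.20e-06). The combination gave 54.7, 52.3 and 48.8 CPM (-0.78, SE 0.118, edgeR adjusted p = 4.70e-05).

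NDRG1 and ANKRD37 were low in control and higher with lurbinectedin. NDRG1 (ENSG00000104419.17, chromosome 8, 133237175 to 133302022, minus strand), a stress-responsive gene linked to differentiation and spread of tumours, was at 2.41, 2.17 and 2.06 CPM in control and at 4.55, 4.03 and 5.31 CPM with lurbinectedin. The rise was 2.09-fold (log2 fold change 1.06, SE 0.172, edgeR adjusted p = 7.44e-05), with 65 to 72 counts per control library. ANKRD37 (ENSG00000186352.9, chromosome 4, 185396021 to 185400628, plus strand) encodes a small ankyrin repeat protein and is a HIF target. It went from 2.28, 1.37 and 1.79 CPM in control to 8.43, 7.04 and 8.25 CPM with lurbinectedin, 4.35-fold (2.12, SE 0.203, edgeR adjusted p = 4.48e-07). The combination gave 4.02, 4.34 and 4.02 CPM for NDRG1 (0.90, SE 0.172, edgeR adjusted p = 0.000374) and 6.59, 7.67 and 6.13 CPM for ANKRD37 (1.90, SE 0.203, edgeR adjusted p = 1.64e-06). With teriflunomide alone NDRG1 was at 1.96, 2.78 and 2.32 CPM and ANKRD37 at 1.47, 2.07 and 2.18 CPM, and both overlapped with control (0.09, edgeR adjusted p = 0.784 for NDRG1 and 0.07, edgeR adjusted p = 0.877 for ANKRD37). ANKRD37 shares 909 of 2253 exonic bases with UFSP2 on the other strand, whose level went the other way with lurbinectedin, from 15.7 ± 0.580 to 8.50 ± 1.11 CPM (-0.88, SE 0.129, edgeR adjusted p = 2.93e-05).

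**Figure D3:**
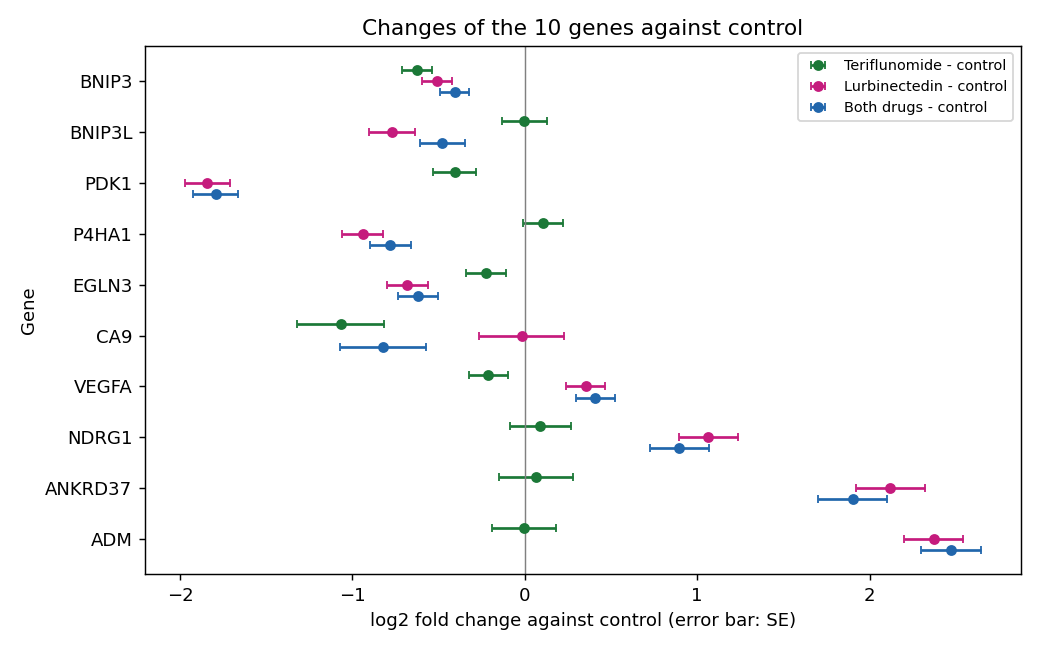
Log2 fold change of each gene against control (horizontal, error bars are SE) for teriflunomide, lurbinectedin and both drugs, all 3 against the same 3 control libraries. PDK1 reaches -1.84 and ADM 2.37 with lurbinectedin, while CA9 at -1.07 is the lowest with teriflunomide.

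Counted over the 9 members other than BNIP3, lurbinectedin raised 4 (ADM, ANKRD37, NDRG1 and VEGFA) and lowered 4 (PDK1, P4HA1, BNIP3L and EGLN3), with CA9 not called. Of all 16683 genes tested 36% were called higher and 35.7% lower, 71.6% in all, and the 8 of 9 members called are read against that share. Lurbinectedin and control libraries did not overlap for these 8 members and for 83.2% of all genes. BNIP3, chosen for its fall, is left out of this count. The median log2 fold change of the 9 was -0.02, compared with 0.05 for all genes. Scaled by library size alone, the median of all genes was -0.18, a shift of the whole scale. Each member called with lurbinectedin kept its direction there.

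Teriflunomide alone was called for 1 of the 9, CA9, where 6.01% of genes were called in either direction, 3.88% higher and 2.13% lower. The call is an edgeR quasi-likelihood p, adjusted by Benjamini-Hochberg, of less than 0.05. Of the 9, the groups did not overlap for CA9, PDK1, EGLN3 and VEGFA, all lower, and they did not overlap for 36.8% of all genes. BNIP3 did not overlap either, but it was chosen for its fall and is not counted. The median log2 fold change of the 9 other members was -0.00, against 0.03 for all genes.

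The combination against control, which shares its control libraries with both comparisons above, was called for all 9, with 4 higher and 5 lower, where 34.1% and 34.4% of genes were called, 68.4% in all. The libraries did not overlap for any of the 9 and for 77.2% of genes, with BNIP3 left out because its falls chose the set. CA9 joined the 4 genes that were lower with lurbinectedin. Against teriflunomide the combination was called for 8 of the 9, 4 higher and 4 lower, with 70.9% of genes called, 35.2% higher and 35.8% lower. Groups did not overlap for these 8 members and for 70.7% of genes, with BNIP3 again left out. ADM was higher by 2.48 (log2, SE 0.172, edgeR adjusted p = 2.15e-08) and PDK1 had the lowest value (-1.39, SE 0.129, edgeR adjusted p = 3.61e-07). CA9 was not called there (0.25, SE 0.255, edgeR adjusted p = 0.401; 0.68 and adjusted p = 0.00759 without teriflunomide replicate 2). Without teriflunomide replicate 3 the value was -0.01 (adjusted p = 0.959), so it rests on which teriflunomide libraries are used. EGLN3 was not called against teriflunomide with only the compared groups in the fit (-0.39, edgeR adjusted p = 0.0725).

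The combination against lurbinectedin shows what came with teriflunomide when lurbinectedin was present. In edgeR 0 of the 9 were called, as were 0% of all genes, and DESeq2 also called 0 of the 9. At an unadjusted p under 0.05 there were 2 of the 9, CA9 and BNIP3L, and 15.6% of all genes. Groups did not overlap for CA9 alone of the 9, and for 23.7% of genes. BNIP3 did not overlap either, but its falls chose the set and it is not counted. The CA9 libraries were at 6.96 to 8.25 CPM in the combination and 11.9 to 14.2 CPM with lurbinectedin (log2 fold change -0.80, SE 0.252, edgeR adjusted p = 0.188). That difference was called with no filter (adjusted p = 0.00318) and with only these groups in the fit (adjusted p = 0.0390). BNIP3L was higher in the combination by 0.29 (SE 0.132, edgeR adjusted p = 0.310), with overlapping libraries.

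The interaction, the effect of teriflunomide with lurbinectedin minus its effect without, was called in edgeR for 0 of the 9 members and for 0.258% of genes. DESeq2 called 0 of the 9, and 1 of them, PDK1, had an unadjusted p under 0.05, as did 10.3% of genes. PDK1 had an interaction of 0.45 (SE 0.179, edgeR adjusted p = 0.395). The 9 values ran from -0.29 in ANKRD37 to 0.45 in PDK1. For CA9 the teriflunomide effect was -1.07 without and -0.80 with lurbinectedin, and the difference of 0.26 (SE 0.354, edgeR adjusted p = 0.867) was within its error. It was 0.02 without teriflunomide replicate 3 and 0.70 without teriflunomide replicate 2, with adjusted p of 0.977 and 0.420.

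The members differ in genomic length, which is given because long genes were the ones that fell most with lurbinectedin. All nuclear genes were put in 5 equal classes by span. The median log2 fold change was 0.69 in the shortest class, then 0.62, 0.28 and -0.36, and -1.86 in the longest. ADM (2.33 kb) and ANKRD37 (4.61 kb) are in the shortest class, and at 2.37 and 2.12 were above its median. CA9 (7.24 kb) is in the next class, where 56.9% of genes were called higher, and at -0.02 was below its median. BNIP3 (15.6 kb) is in that class too, but its value of -0.51 helped to choose the set. VEGFA (16.3 kb) at 0.35 was near the median of the middle class. PDK1 (53.3 kb) and NDRG1 (64.8 kb) share the fourth class, with opposite values of -1.84 and 1.06. P4HA1 (89.8 kb), BNIP3L (123 kb) and EGLN3 (539 kb) are in the longest class, and at -0.94, -0.77 and -0.68 fell less than its median. Spans cover all annotated transcripts of a gene. For EGLN3, on the minus strand, the RefSeq start at 33951074 lies far inside its span of 33924227 to 34462774. Its class therefore depends on the transcript taken. The part of gene length in these changes was not tested.

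**Figure D4:**
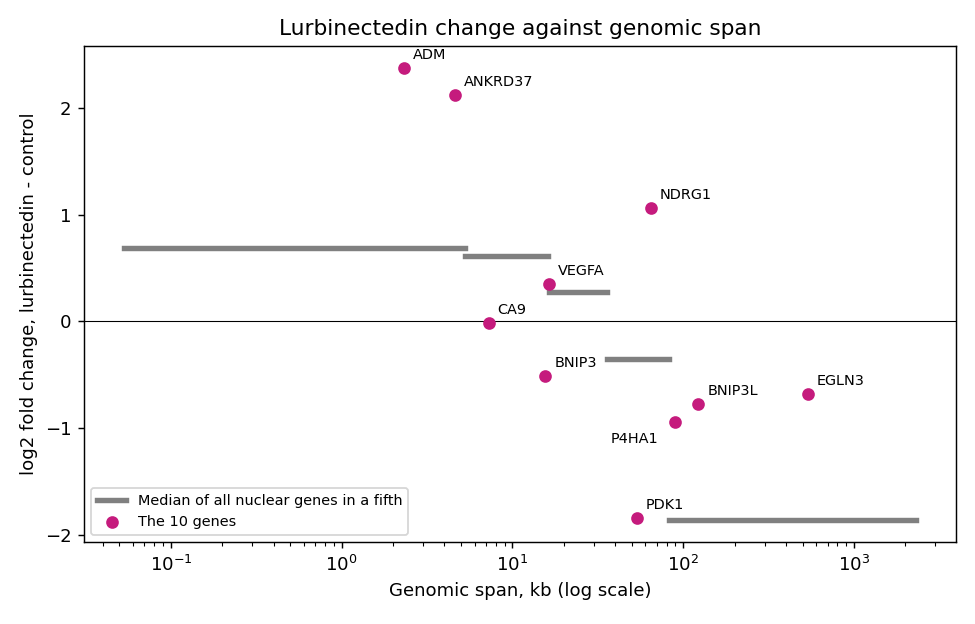
Log2 fold change with lurbinectedin against control (vertical) by genomic span in kb (horizontal, log scale) for the 10 genes, with grey bars for the median of all nuclear genes in each of 5 span classes. NDRG1 and PDK1 have similar spans and lie at 1.06 and -1.84.

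The oxygen-sensing machinery itself was measured through 16 genes, of which 15 passed the filter. With teriflunomide 1 of the 15 rose, EPAS1, which encodes HIF-2alpha, from 8.56 ± 0.562 to 14.1 ± 0.381 CPM (0.72 on the log2 scale, SE 0.160, edgeR adjusted p = 0.0208). Of all genes 3.88% were called higher with teriflunomide and 2.13% lower. With library size alone as the scaling 0 of the 15 were called. With lurbinectedin 5 rose and 8 fell, where 36% of all genes were called higher and 35.7% lower, with a list median of -0.45 against 0.05 for all genes. CITED2, which competes with HIF for its coactivators, rose from 7.12 ± 0.410 to 55.1 ± 2.94 CPM (2.95, SE 0.233, edgeR adjusted p = 6.28e-08). EGLN2 rose from 2.25 ± 0.148 to 8.62 ± 0.246 CPM (1.94, SE 0.190, edgeR adjusted p = 5.81e-07), while its relative EGLN1 fell from 3.70 ± 0.207 to 0.377 ± 0.176 CPM (-3.23, SE 0.446, edgeR adjusted p = 1.70e-05).

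Among HIF subunits and the VHL ligase, lurbinectedin lowered ARNT, the shared partner of the alpha subunits, from 80.2 ± 2.16 to 46.7 ± 3.27 CPM (-0.78, SE 0.113, edgeR adjusted p = 2.78e-05) and EPAS1 to 5.52 ± 0.410 CPM (-0.63, SE 0.168, edgeR adjusted p = 0.00392). CUL2, the scaffold of the VHL ligase, fell from 86.5 ± 2.39 to 23.8 ± 0.681 CPM (-1.86, SE 0.130, edgeR adjusted p = 1.75e-08), and VHL rose from 98.1 ± 1.72 to 130 ± 3.56 CPM (0.41, SE 0.0871, edgeR adjusted p = 0.000770). The coactivator CREBBP fell from 154 ± 9.75 to 47.1 ± 0.855 CPM (-1.71, SE 0.119, edgeR adjusted p = 1.87e-08). HIF1A, the main alpha subunit, was among the 2 genes of the list that were not called. The combination gave 5 of the list higher and 7 lower, where 34.1% and 34.4% of all genes were called.

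Of 44 other HIF target genes, 40 passed the filter. Teriflunomide lowered 7 and raised 1, where 2.13% of all genes were called lower and 3.88% higher. Scaled by library size alone, 1 was lower and 0 higher, and with only the compared groups in the fit 1 was lower and 1 higher. The falls included DDIT4, an inhibitor of mTORC1 signalling, from 132 ± 3.46 to 76.0 ± 18.8 CPM (log2 fold change -0.80, SE 0.147, edgeR adjusted p = 0.00807), BHLHE40, a transcriptional repressor, from 14.4 ± 0.281 to 9.01 ± 0.867 CPM (-0.67, SE 0.115, edgeR adjusted p = 0.00551), and SLC6A8, the creatine transporter, from 88.0 ± 3.54 to 55.1 ± 17.3 CPM (-0.68, SE 0.180, edgeR adjusted p = 0.0435). STC1, which encodes stanniocalcin 1, rose from 55.9 ± 1.42 to 98.2 ± 15.5 CPM (0.81, SE 0.152, edgeR adjusted p = 0.00864). The list median was -0.08 against 0.03 for all genes. The number lowered was 2 without any single control library and 10 without teriflunomide replicate 3.

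With lurbinectedin 15 of the same 40 genes were called higher and 19 lower, beside 36% and 35.7% of all genes. HMOX1, heme oxygenase 1, rose from 6.01 ± 0.143 to 18.5 ± 2.39 CPM (1.62, SE 0.213, edgeR adjusted p = 1.10e-05). Among the genes that fell furthest were GBE1, the glycogen branching enzyme, from 53.9 ± 4.42 to 4.37 ± 0.408 CPM (-3.62, SE 0.181, edgeR adjusted p = 8.40e-10), and KDM4C, a histone demethylase (-2.98, SE 0.147, edgeR adjusted p = 6.25e-10). The list median was -0.29. The combination raised 13 and lowered 18, where 34.1% and 34.4% of all genes were called.

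Glycolysis and glucose uptake genes that HIF can induce went down with teriflunomide in 9 of 19 cases and up in 1, SLC2A3, with a list median of -0.53, where 2.13% of all genes were called lower and 3.88% higher. Scaled by library size alone, 2 were lower and 0 higher (median -0.58), and the same counts were found with only the compared groups in the fit. LDHA, lactate dehydrogenase A, fell from 1482 ± 63.0 to 907 ± 32.2 CPM (log2 fold change -0.71, SE 0.0911, edgeR adjusted p = 0.00111), HK2, hexokinase 2, from 193 ± 3.01 to 118 ± 1.49 CPM (-0.71, SE 0.0827, edgeR adjusted p = 0.000545), and SLC16A3, the lactate exporter, from 135 ± 3.82 to 71.6 ± 28.5 CPM (-0.91, SE 0.226, edgeR adjusted p = 0.0325). The number lowered was 3 without any single control library and 12 without teriflunomide replicate 3, when the median was -0.34. With lurbinectedin 7 rose and 5 fell, beside 36% and 35.7% of all genes, and the median was 0.19. By library size alone 2 rose and 5 fell, and the median turned to -0.05. Those lower included LDHA (-0.75, SE 0.0912, edgeR adjusted p = 4.78e-06) and HK2 (to 96.2 ± 5.01 CPM, edgeR adjusted p = 9.80e-08). Several of these genes have processed pseudogenes, so their counts are uncertain.

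**Figure D5:**
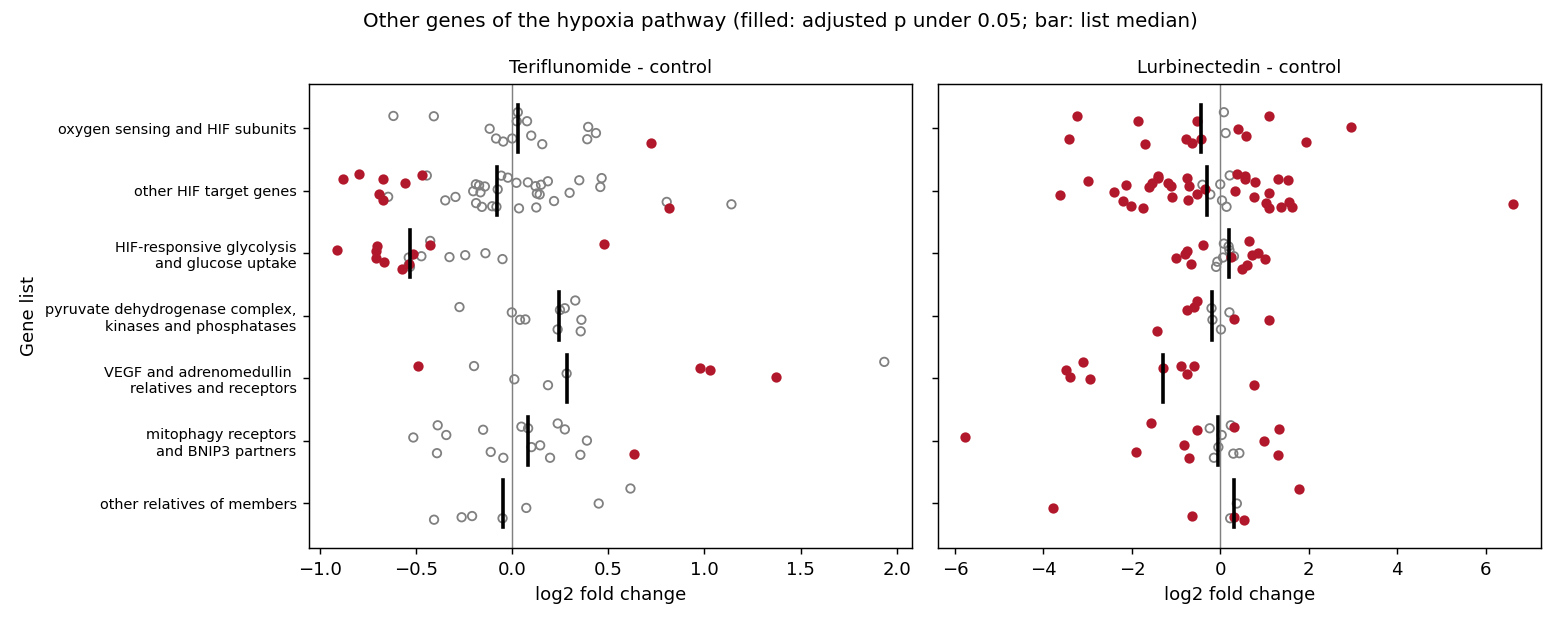
Log2 fold change of each tested gene in 7 lists around the hypoxia response (vertical) with teriflunomide and with lurbinectedin against control (horizontal, different scales), filled where the edgeR adjusted p is under 0.05, with the list median as a black bar. With teriflunomide the glycolysis list has its median at -0.53, and with lurbinectedin calls lie on both sides of 0 in all 7 lists.

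Of 10 tested genes of the pyruvate dehydrogenase complex, its kinases and phosphatases, 0 were called with teriflunomide by edgeR (1 without teriflunomide replicate 3). Of all genes 6.01% were called there. With lurbinectedin 2 of the 10 rose and 4 fell. That is 6 of 10 called, where 71.6% of all genes were. PDK3, another of the kinases, fell from 89.0 ± 1.38 to 32.9 ± 4.59 CPM (log2 fold change -1.43, SE 0.151, edgeR adjusted p = 1.22e-06). PDP1, a phosphatase that acts against the kinases, rose from 11.4 ± 0.175 to 24.7 ± 1.06 CPM (1.11, SE 0.127, edgeR adjusted p = 2.68e-06). The kinases PDK1 and PDK3 thus fell where PDP1 rose.

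Of 9 tested relatives and receptors of VEGFA and ADM, teriflunomide raised 3 and lowered 1, where 3.88% of all genes were called higher and 2.13% lower. Lurbinectedin raised 1 and lowered 8, where 36% of all genes were called higher and 35.7% lower. Scaled by library size alone, teriflunomide raised 2 and lowered 0, and lurbinectedin raised 0 and lowered 8. FLT1, a VEGF receptor, was at 5.54 ± 0.145 CPM in control, rose to 11.3 ± 2.10 CPM with teriflunomide (1.03 on the log2 scale, SE 0.180, edgeR adjusted p = 0.00592) and fell to 0.492 ± 0.0503 CPM with lurbinectedin (-3.49, SE 0.248, edgeR adjusted p = 2.17e-08). The co-receptor NRP2 went the same ways, from 15.4 ± 1.36 to 30.3 ± 0.611 CPM with teriflunomide (0.97, SE 0.128, edgeR adjusted p = 0.00127) and to 6.28 ± 0.584 CPM with lurbinectedin (-1.29, SE 0.136, edgeR adjusted p = 1.08e-06). PGF, placental growth factor, was the gene of this list that rose with lurbinectedin (0.76, SE 0.201, edgeR adjusted p = 0.00376).

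BNIP3 acts with other mitophagy proteins, and 17 of these were tested. Teriflunomide raised 1, PINK1, the kinase that starts the parkin route, from 13.4 ± 0.777 to 20.8 ± 2.85 CPM (0.63 on the log2 scale, SE 0.146, edgeR adjusted p = 0.0249), and lowered 0. Among all genes 3.88% were called higher with teriflunomide and 2.13% lower. Scaled by library size alone teriflunomide was called for 0 of the 17. Lurbinectedin raised 4 and lowered 6, or 10 of 17, where 71.6% of all genes were called, and by library size alone it raised 2 and lowered 9. MAP1LC3B and GABARAPL1, autophagosome proteins of the family that BNIP3 binds, rose to 205 ± 14.9 CPM from 82.7 ± 2.06 (1.31, SE 0.117, edgeR adjusted p = 2.33e-07) and to 33.0 ± 2.92 CPM from 13.1 ± 0.613 (1.33, SE 0.116, edgeR adjusted p = 1.56e-07). OPA1, which fuses inner mitochondrial membranes, fell from 172 ± 4.35 to 46.0 ± 5.04 CPM (-1.90, SE 0.139, edgeR adjusted p = 2.88e-08). FBXL4, a ubiquitin ligase subunit that restrains BNIP3 and BNIP3L protein, fell from 26.9 ± 2.47 to 9.10 ± 0.649 CPM (-1.56, SE 0.135, edgeR adjusted p = 1.59e-07). The list median was -0.04 with lurbinectedin, against 0.05 for all genes.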

How the data were processed

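The authors deposited raw read counts per gene, 1 table per library with no normalization. Per the submitters' processing notes, fastp 0.23.2, STAR 2.7.9, Subread and featureCounts were used with build hg38. The annotation release, strand setting and treatment of multi-mapping reads are not given in the sources used here. All 37318 identifiers with the same version in GENCODE 29 had identical spans there. Symbols were matched for 60463 of 60649 identifiers.

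Low genes were removed with filterByExpr over 4 groups, leaving 16683, and edgeR 4.0.16 (R 4.3.3) scaled the 12 libraries by TMM. All libraries entered a single robust quasi-likelihood fit with a mean for each group, and 6 contrasts were tested with Benjamini-Hochberg adjustment over all genes within each contrast. Genes with an adjusted p under 0.05 were called. SEs come from the quasi-likelihood F statistic. CPM use effective library sizes. The method was tested on simulated data.

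Members and lists were chosen with earlier results of these data known. Named genes are the members, called genes of the oxygen-sensing list, and from each other list up to 3 called genes that rose most and 3 that fell most, of those with at least 5 CPM in the higher group. Likeness to BNIP3 is the root mean square difference of centred log2 CPM (pseudocount 0.5) over 12 libraries. Some genes that this rule or the marker lists hold are not reported here.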

Additional observations from a re-analysis of the deposited data

Results flagged for a closer look

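BNIP3 was lower in every teriflunomide library than in every control library, and higher in every combination library (125 to 136 CPM) than in every lurbinectedin library (118 to 124 CPM). The fitted log2 effect of teriflunomide was -0.63 (SE 0.0859) without lurbinectedin and 0.10 (SE 0.0858) with it. These differ in sign, but the second is close to its SE. The log2 difference of the effects was 0.73 (SE 0.121). The falls that chose the set both enter this difference and make it more positive. This difference was not tested, because BNIP3 was chosen for its low level with each drug alone. The gap between the nearest combination and lurbinectedin libraries is small compared with the spread within either group.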

How the results depend on the processing

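The number of genes called with teriflunomide against control (1002) was 265 with library size as the only scaling, 1800 with no filter, 1907 in DESeq2 and 283 with only the compared groups in the fit, and 216 to 1555 when single libraries were left out. For the combination against lurbinectedin (0 called) it was 612 with no filter, 584 in DESeq2 and 94 with only these groups, and 0 to 259 without single libraries (259 without combination replicate 2). For the interaction (43 called) it was 6 with library size only, 195 with no filter and 258 in DESeq2, and 2 to 616 without single libraries (616 without teriflunomide replicate 3). Of the 9 members other than BNIP3, 1 was called with teriflunomide, 0 with library size only, 0 with only the compared groups and 0 to 2 without single libraries. Counts that include BNIP3, whose fall chose the set and which supports nothing, were 1, 1 and 1 to 3. Against lurbinectedin the combination had 1 member called with no filter and 1 with only these groups. The interaction was called for 0 of the 9 under every alternative run. Counts that include BNIP3 were 0 with library size only and 0 to 1 without single libraries. With the replicate block, 415 genes were called with teriflunomide, and 8 genes and 0 members in the interaction. The numbers in the titles are not known to pair the libraries. Correlations of same-numbered libraries' deviations ran from -0.40 to 0.14, and those of different-numbered libraries from -0.21 to 0.36. A shared batch was not tested. No called member changed sign in any alternative. Of 890 member values under the alternatives, 829 kept direction and side of the threshold. Both counts include the values of BNIP3, which support nothing.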

Other observations

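The 5 genes at 5 CPM or more whose levels over the 12 libraries lay nearest to those of BNIP3 were UVSSA, PALM3, TMPO-AS1, ZBED4 and PRPS2, with root mean square differences of 0.105, 0.108, 0.132, 0.134 and 0.140 on the centred log2 scale. UVSSA was at 30.8 ± 0.945 CPM in control, 20.3 ± 1.36 CPM with teriflunomide, 21.8 ± 1.24 CPM in lurbinectedin libraries and 21.4 ± 0.758 CPM where both drugs were given. TMPO-AS1 is an antisense gene, and its counts are uncertain because the use of strand is not stated. Among the members EGLN3 was the nearest to BNIP3 at 0.259, BNIP3L was at 0.345 and ADM was the farthest at 1.19. By rank of nearness among the 16683 tested genes EGLN3 was at 891, BNIP3L at 3501 and ADM at 15519. Many genes outside the set thus lay nearer to BNIP3 than any member did. Such genes far outnumber the members, so this supports nothing about the set.

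Relatives of NDRG1 did not move as a family. With lurbinectedin NDRG3 fell from 52.4 ± 0.275 to 3.77 ± 0.419 CPM (log2 fold change -3.79, SE 0.161, edgeR adjusted p = 2.34e-10), whereas NDRG1 rose. In the combination NDRG4 rose from 1.11 ± 0.402 to 5.41 ± 0.816 CPM (2.27, SE 0.267, edgeR adjusted p = 4.28e-06). Of the 7 tested relatives of members, 3 rose and 2 fell with lurbinectedin, where 36% of all genes were called higher and 35.7% lower. With teriflunomide 0 of them were called by edgeR, where 6.01% of all genes were.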
